A study of Mus musculus with 12 samples.

Results

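The genes described here encode nuclear subunits of the oxidative phosphorylation machinery, together with the Ndufaf assembly factors of complex I whose symbols share the same root. They were chosen by symbol alone, as every gene named by 1 probe set symbol that begins with Ndufa, Ndufb, Ndufc, Ndufs, Ndufv, Uqcr or Atp5, or with Cox4 to Cox8 and a letter, or that is Sdha, Sdhb, Sdhc or Sdhd. On the array, 89 genes carried such a symbol, on 114 probe sets, and 85 of them reached an intensity over 50 on at least 1 of the 12 arrays, out of 11919 genes of all kinds that did so and were tested. These 85 genes were 35 named for complex I, 7 complex I assembly factors, 4 of complex II, 8 of complex III, 14 of complex IV and 17 of complex V, the ATP synthase. The brightest probe set stood for a gene with several. Ndufa4 was counted with complex I by its name, although its protein is now placed in complex IV. Below the limit lay Cox7b2, Ndufa4l2, Cox8c and Cox8b, with highest intensities of 8.92, 36.2, 39.2 and 39.95. Just above it lay Cox4i2, Ndufaf6 and Ndufaf5, with highest intensities of 50.8, 51.9 and 55.4. A further 6 probe sets carried several symbols, among them Cox7c and Ndufb4, and were left out.

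The samples were RNA of scrapings from 3 segments (proximal, middle, distal) of the small bowel of male C57BL/6J mice, either 21 months old (old) or 4 months old (young), fed a high-fat diet (45% of energy) or a low-fat diet (10% of energy) for 2 weeks. RNA of 8 old or 6 young mice was pooled, so the 4 pools old high-fat, old low-fat, young high-fat and young low-fat gave 1 array for each of the 3 segments. No genotype or drug differed between the groups. The number of arrays, and the fact that a pool hides the spread between mice, limit the precision of every value below. Each of the 4 pools was a different condition, and none was repeated. The p-values of the segment comparisons rest on how far a difference varied between the 4 pools. Those of age and diet rest on how far a difference varied between its 2 pairs of pools. For tests within a segment, that variation was shared over the 3 segments, although the same 4 pools gave all 3. All of the p-values borrow from the spread over all genes, and none measures the spread between repeated pools.

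Oxidative phosphorylation takes place at the inner mitochondrial membrane. Complexes I and II pass electrons from NADH and succinate to ubiquinone, complex III hands them on to cytochrome c, complex IV reduces oxygen, and the proton gradient that complexes I, III and IV build drives complex V. The absorptive enterocytes of the small intestine spend much ATP on sodium-coupled uptake of nutrients. Several complex IV and complex V subunits exist as paralogs, some of them known from heart and skeletal muscle, lung or testis, and 3 genes encode the same mature c subunit of the ATP synthase.

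Of the 85 genes, 71 had an entry in the RefSeq promoter table of mouse build GRCm38.p6, which spans 250 bases before to 50 bases after the start site. Each window was searched on both strands for 4 motifs known from nuclear genes of mitochondrial proteins: GCATGCGC (nuclear respiratory factor 1, NRF-1), CCGGAAG (ETS factors such as GABP), AAGATGGCG (YY1) and AAGGTCA (the core of the site of estrogen-related receptors, ERR). The ETS letters end in the AAG with which the YY1 and ERR letters begin, so these matches can overlap, and a palindromic stretch can match NRF-1 on both strands. The NRF-1 letters stood in 12 of the 71 windows (16.9%), against 2.8% of all 27025 promoters in the table. The ETS letters stood in 17 (23.9%, against 9.12% of all), the YY1 letters in 6 (8.5%, against 1.49%) and the ERR letters in 7 (9.9%, against 4.66%). At least 1 of the 4 motifs stood in 33 of the 71 windows, and in 16.8% of all. The upstream 250 bases are printed for a pair of complex II genes, for Cox7a1, whose level differed most along the intestine, and for the 3 c subunit genes, of which Atp5g2 alone did not pass the test along the intestine. They run 5′ to 3′ along the gene's strand, and capitals mark matches to any of the 4 motifs.
Sdhb, chr4:140961021-140961270, plus strand: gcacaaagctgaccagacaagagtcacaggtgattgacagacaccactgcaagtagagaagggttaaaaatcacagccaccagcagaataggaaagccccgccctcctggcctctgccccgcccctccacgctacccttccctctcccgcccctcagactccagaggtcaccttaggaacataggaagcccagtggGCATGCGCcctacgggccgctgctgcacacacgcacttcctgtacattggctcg
Sdhd, chr9:50603850-50604099, minus strand: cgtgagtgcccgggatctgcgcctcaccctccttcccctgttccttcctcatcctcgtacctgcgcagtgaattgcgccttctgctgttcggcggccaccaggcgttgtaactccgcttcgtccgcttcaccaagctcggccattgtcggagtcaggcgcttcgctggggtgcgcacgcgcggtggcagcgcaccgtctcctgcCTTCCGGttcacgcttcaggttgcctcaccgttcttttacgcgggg
Cox7a1, chr7:30183921-30184170, plus strand: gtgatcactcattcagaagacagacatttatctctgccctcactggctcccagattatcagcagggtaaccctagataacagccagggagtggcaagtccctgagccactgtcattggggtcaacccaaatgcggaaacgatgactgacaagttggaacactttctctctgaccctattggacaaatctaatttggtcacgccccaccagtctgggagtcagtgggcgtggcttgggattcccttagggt
Atp5g1, chr11:96075632-96075881, minus strand: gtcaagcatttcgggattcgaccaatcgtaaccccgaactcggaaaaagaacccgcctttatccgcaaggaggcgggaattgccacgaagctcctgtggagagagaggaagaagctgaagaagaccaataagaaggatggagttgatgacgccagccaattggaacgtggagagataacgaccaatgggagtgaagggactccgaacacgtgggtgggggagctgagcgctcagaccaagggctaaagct
Atp5g2, chr15:102671048-102671297, minus strand: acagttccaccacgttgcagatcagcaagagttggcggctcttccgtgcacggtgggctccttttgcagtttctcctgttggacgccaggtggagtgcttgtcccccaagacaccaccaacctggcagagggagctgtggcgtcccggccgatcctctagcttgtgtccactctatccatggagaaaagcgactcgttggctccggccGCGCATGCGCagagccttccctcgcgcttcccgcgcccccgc
Atp5g3, chr2:73911327-73911576, minus strand: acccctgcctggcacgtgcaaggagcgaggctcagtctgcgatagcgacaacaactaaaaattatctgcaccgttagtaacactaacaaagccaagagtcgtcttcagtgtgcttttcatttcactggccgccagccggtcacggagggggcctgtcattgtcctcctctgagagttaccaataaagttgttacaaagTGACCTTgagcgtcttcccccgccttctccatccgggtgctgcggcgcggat

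The NRF-1 match of Sdhb began 54 bases before the start site and the ETS match of Sdhd began 46 bases before it. Both genes had a second match in the 50 bases that are not printed, an ETS match in Sdhb and the ERR letters in Sdhd. Atp5g2 held the NRF-1 letters on both strands in 1 palindromic stretch, Atp5g3 held the ERR letters, and the windows of Atp5g1 and Cox7a1 held none of the 4 motifs. A match is only a description of the letters. Along the intestine, the median proximal minus distal log2 difference was 0.49 among the 33 genes with any of the motifs and 0.51 among those without. By single motif it was 0.56 with and 0.50 without the NRF-1 letters, 0.55 and 0.50 for ETS, 0.49 and 0.51 for YY1, and 0.63 and 0.49 for ERR. These differences were not tested.

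The labelled segments carried their defining transcripts. Fabp6, Slc10a2 and Fgf15, which mark the distal segment, were lower in proximal than in distal scrapings, and Gata4, Slc40a1 and Cybrd1, which mark the proximal one, were higher. Pancreatic acinar genes had a median log2 intensity of 10.97 to 12.38 on the 4 proximal arrays, of 5.12 to 5.94 on the middle arrays and of 5.22 to 5.33 on the distal arrays, and the 29 such genes above the limit were removed before testing. Smooth muscle markers had a median of 6.21 to 6.64 on the proximal, 6.43 to 6.84 on the middle and 6.97 to 8.00 on the distal arrays. Crypt proliferation markers were also lowest in the proximal segment, with medians of 6.92 to 7.24 there, 7.36 to 7.94 on the middle arrays and 7.50 to 8.01 on the distal arrays. Epithelial markers differed less, with medians of 11.57 to 11.62, 11.60 to 11.76 and 11.79 to 11.83 in the same order.

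The first comparison asked how the genes were expressed along the length of the small intestine. Oxidative phosphorylation genes were higher in the proximal than in the distal segment throughout the 5 complexes: 76 of the 85 were higher (limma with the pool as a block, Benjamini-Hochberg adjusted p under 0.05 over all 11919 genes) and 0 were lower. Of all genes tested, 27.5% were higher and 27.3% lower. The median difference was 0.50 on the log2 scale, against -0.02 over all genes, and the lowest difference of any of the 85 genes was -0.03. The gradient ran through the middle segment. The median log2 intensity of the 85 genes was 10.38, 10.39, 10.32 and 10.41 on the proximal arrays of the old high-fat, old low-fat, young high-fat and young low-fat pools, 10.25, 10.17, 10.11 and 10.16 on their middle arrays, and 9.75, 9.84, 9.94 and 9.84 on their distal arrays. The arrays of the 3 segments did not overlap in this median. In scraped tissue, fewer cells of a type and less RNA per cell cannot be told apart.

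**Figure D1:**
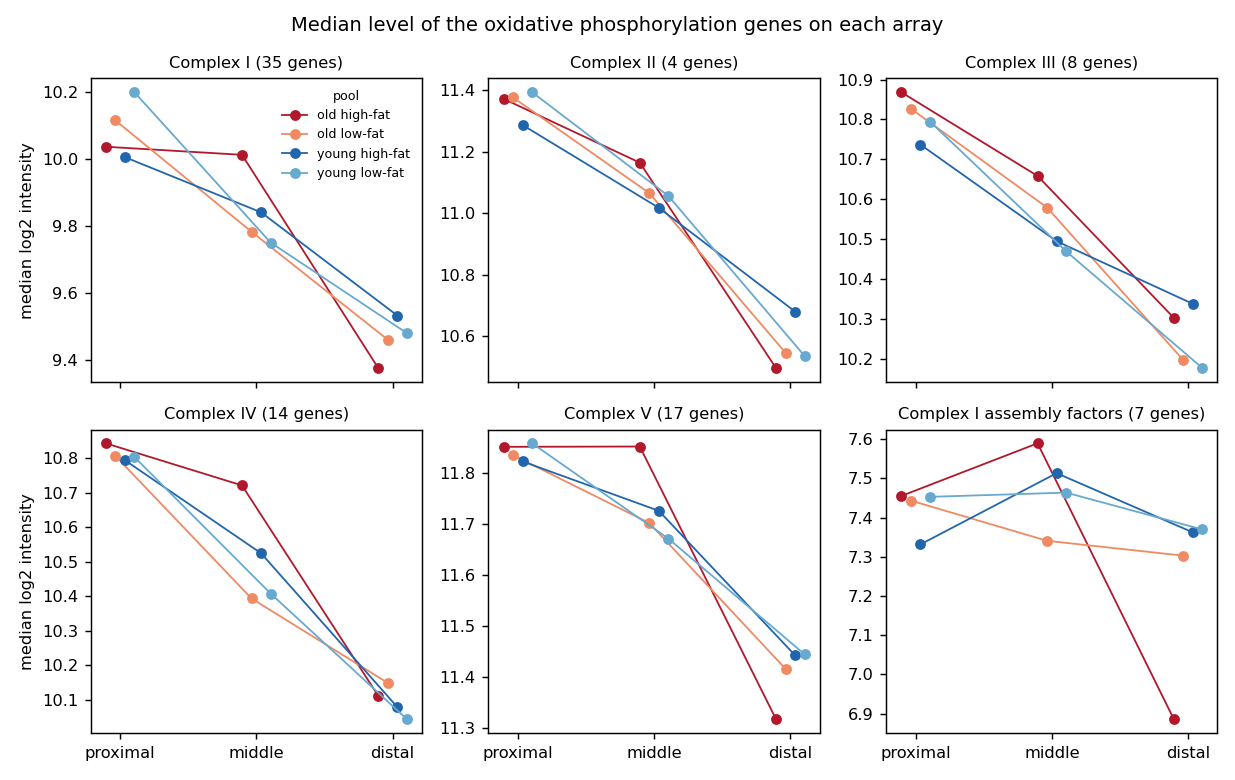
Median log2 intensity of the genes of each complex (vertical axis, a separate scale in each panel) on the 12 arrays, by segment (horizontal axis) and pool (colour), with lines joining the 3 arrays of 1 pool. In each of the 5 complexes the distal array lay below the proximal one in all 4 pools, whereas the 7 assembly factors kept a similar level on 11 arrays and were lowest, at 6.89, on the distal old high-fat array.

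The same direction held within each pool. The median proximal minus distal log2 difference of the 85 genes was 0.59 in the old high-fat pool, 0.50 in the old low-fat pool, 0.40 in the young high-fat pool and 0.51 in the young low-fat pool. In all 4 pools 79 of the 85 genes were higher in the proximal segment, the exceptions being Atp5g2, Cox4i2, Cox6b2, Ndufaf2, Ndufaf6 and Ndufaf7. Taken 1 pool at a time, 48.2%, 49.5%, 47.2% and 51.8% of all genes were higher there, in the same order of pools. For 78 of the genes every proximal array lay above every distal array, which 23.8% of all genes showed, and for 37 the order proximal, middle, distal held with no overlap, which 4.83% of all genes showed. Only 5 genes were over 2-fold higher in the proximal segment of at least 1 pool (Cox7a1, Ndufa1, Ndufa5, Ndufb6 and Ndufs5), as were 5.94% of all genes.

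In the middle against the distal segment 71 genes were higher and 0 lower, with a median difference of 0.31, while 20% of all genes were higher and 14.6% lower. In the proximal against the middle segment 36 genes were higher and 0 lower, with a median of 0.18, while 10.9% of all genes were higher and 14% lower. The count of 36 fell to 8, 12 and 9 when the old low-fat, the young high-fat or the young low-fat pool was left out, and was 47 without the old high-fat pool. How the gradient divided between these steps varied with the pool. The median middle minus distal difference was 0.49 in the old high-fat pool, 0.30 in the old low-fat pool, 0.22 in the young high-fat pool and 0.25 in the young low-fat pool, and the median proximal minus middle difference was 0.06, 0.20, 0.16 and 0.25 in the same order. The steps were thus most unequal in the old high-fat pool and of similar size in the young low-fat pool. Acinar genes were abundant in the proximal scrapings alone and had similar levels on the middle and distal arrays. Their part in the values of the oxidative phosphorylation genes was not tested.

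All 35 genes named for complex I were higher in the proximal segment, by a median of 0.52 and over a range of 0.31 to 1.05. Ndufa1, a small membrane-arm subunit, had intensities of 1337, 1158, 1138 and 1296 on the proximal arrays of the old high-fat, old low-fat, young high-fat and young low-fat pools. It had 1042, 881, 824 and 852 on the middle arrays and 607, 584, 606 and 586 on the distal ones. No array of 1 segment overlapped with another segment, and the proximal level was 2.06-fold the distal one (log2 1.05 ± 0.07 SE, adjusted p = 5.86e-07). Ndufa5, an accessory subunit of the matrix arm, had 894, 747, 762 and 836 on the proximal, 739, 615, 667 and 531 on the middle and 418, 433, 476 and 429 on the distal arrays, a log2 difference of 0.88 ± 0.09 between the ends (adjusted p = 1.8e-05). Its proximal and middle arrays nearly touched, since the middle array of the old high-fat pool, 739, lay just below the lowest proximal array.

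The subunits that carry the redox centres of complex I lay on both sides of its median. Ndufv2, an iron-sulfur subunit, differed by 0.63, Ndufv1, which binds FMN, differed by 0.51, Ndufs1, which holds iron-sulfur clusters in the matrix arm, by 0.56, Ndufs7, next to the ubiquinone site, by 0.49 and Ndufs8 by 0.31, the smallest difference of the complex. Grouped by position, a grouping made after the values were seen, the 15 matrix-arm genes had a median of 0.49 and the 18 membrane-arm genes one of 0.61. The ranges overlapped, 0.31 to 0.88 in the matrix arm and 0.34 to 1.05 in the membrane arm. The 7 assembly factors, which help to build complex I and leave it afterwards, had a median of 0.18. Ndufaf3 and Ndufaf4 passed the test with 0.28 and 0.34, and Ndufaf6 and Ndufaf7 differed by -0.03 and 0.01, with 95% confidence intervals of -0.25 to 0.20 and -0.16 to 0.19. Ndufaf5 and Ndufaf6 stayed close to the intensity limit.

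**Figure D2:**
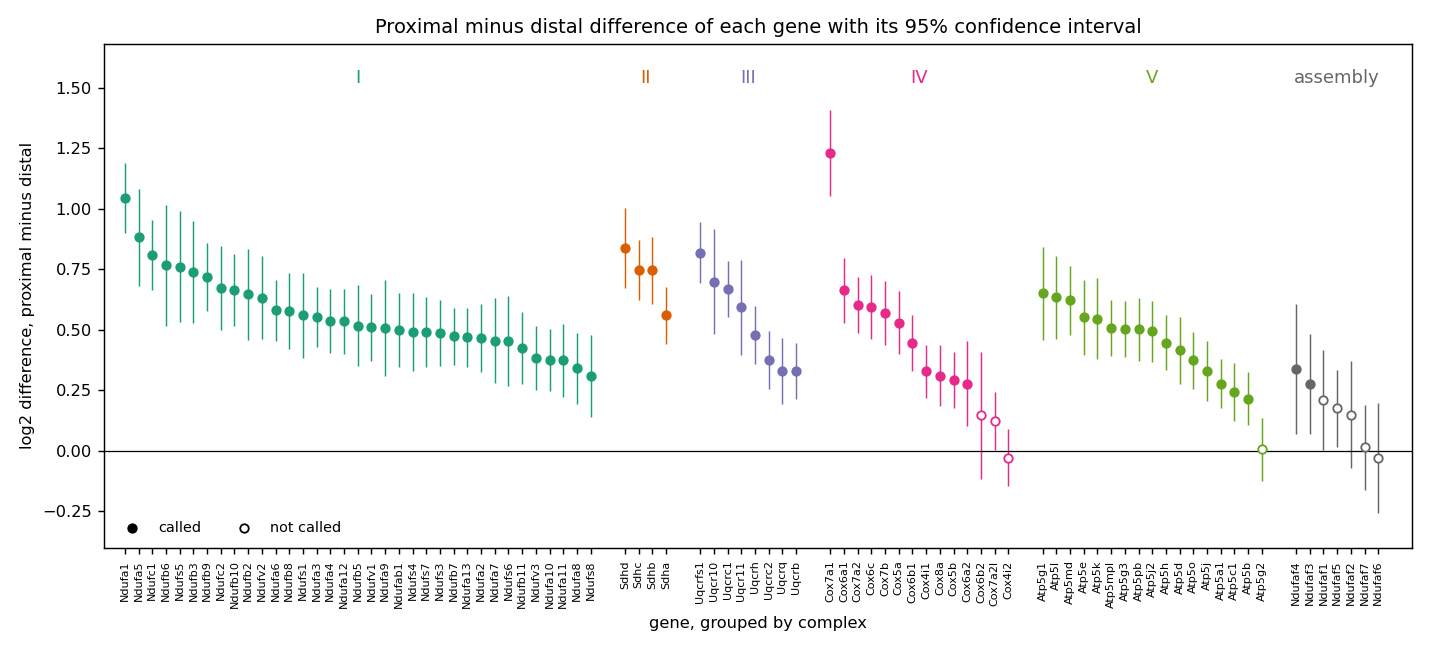
Proximal minus distal log2 difference (vertical axis) of each of the 85 genes (horizontal axis), ordered within complexes I to V and the complex I assembly factors, with bars for the 95% confidence interval of the limma fit. Filled points passed the test and open points did not, and the 9 open points are 5 assembly factors, 3 complex IV genes and Atp5g2.

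Complex II, the succinate dehydrogenase that also serves the tricarboxylic acid cycle, had the highest median of the 5 complexes, 0.75, and had it in all 4 pools (0.74, 0.77, 0.60 and 0.86 in the order used above). It holds only 4 genes. Sdhd, 1 of the membrane anchors, had intensities of 2926, 2952, 2656 and 2959 on the proximal, 2646, 2456, 2245 and 2377 on the middle and 1474, 1581, 1742 and 1636 on the distal arrays. The other anchor Sdhc differed by 0.75 ± 0.06 SE, the iron-sulfur subunit Sdhb by 0.74 ± 0.06 and the flavoprotein Sdha by 0.56 ± 0.05, against 0.84 ± 0.07 for Sdhd. The distal arrays of Sdha, at 3180, 3357, 3351 and 3565, lay below its proximal arrays, at 4950, 4964, 4699 and 5211. All 4 genes passed the test in each of the 3 segment comparisons.

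The 8 complex III genes were all higher in the proximal segment, with a median of 0.54. Uqcrfs1, the Rieske iron-sulfur protein, led them with 1103, 1051, 979 and 1047 on the proximal, 874, 849, 798 and 762 on the middle and 583, 586, 594 and 605 on the distal arrays, a log2 difference of 0.82 ± 0.06 (adjusted p = 1.24e-06). Its 3 segments did not overlap. The core protein Uqcrc1 differed by 0.67, and Uqcrb and Uqcrq, small accessory subunits, by 0.33 each.

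Complex IV was the most mixed complex, with 11 of 14 genes higher and differences between -0.03 and 1.23. Cox7a1, the paralog known from heart and skeletal muscle, had the largest difference of all 85 genes. Its intensities were 2063, 1956, 2028 and 1921 on the proximal arrays, 1912, 1303, 1620 and 1340 on the middle arrays and 924, 756, 978 and 759 on the distal arrays of the old high-fat, old low-fat, young high-fat and young low-fat pools. The 3 segments did not overlap, the proximal level was 2.35-fold the distal one, and the log2 difference was 1.23 ± 0.08 SE (adjusted p = 7.61e-07). Its paralog Cox7a2, known from most tissues, differed by 0.60 ± 0.05. The related Cox7a2l differed by 0.12 ± 0.05 (limma, adjusted p = 0.0776), and another, less bright probe set of Cox7a2l gave 0.22. Of 17 smooth muscle markers, 16 were lower in the proximal segment, with a median of -1.06, and their part in the value of Cox7a1 was not tested. Among the other paralogs, Cox6a1 differed by 0.66 and its muscle paralog Cox6a2 by 0.28, and Cox6b1 differed by 0.44 while Cox6b2, known from testis, had a difference of 0.15 that did not pass (95% interval -0.12 to 0.41). Cox4i1, the paralog of most tissues, differed by 0.33, and Cox4i2, known from lung, by -0.03 (-0.15 to 0.09), with intensities of 43.1 to 50.8 that passed the limit on 1 array only. Cox8a, for which the paralogs Cox8b and Cox8c were below the limit, differed by 0.31, Cox5a by 0.53 and Cox5b by 0.29. Ndufa4 differed by 0.54.

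**Figure D3:**
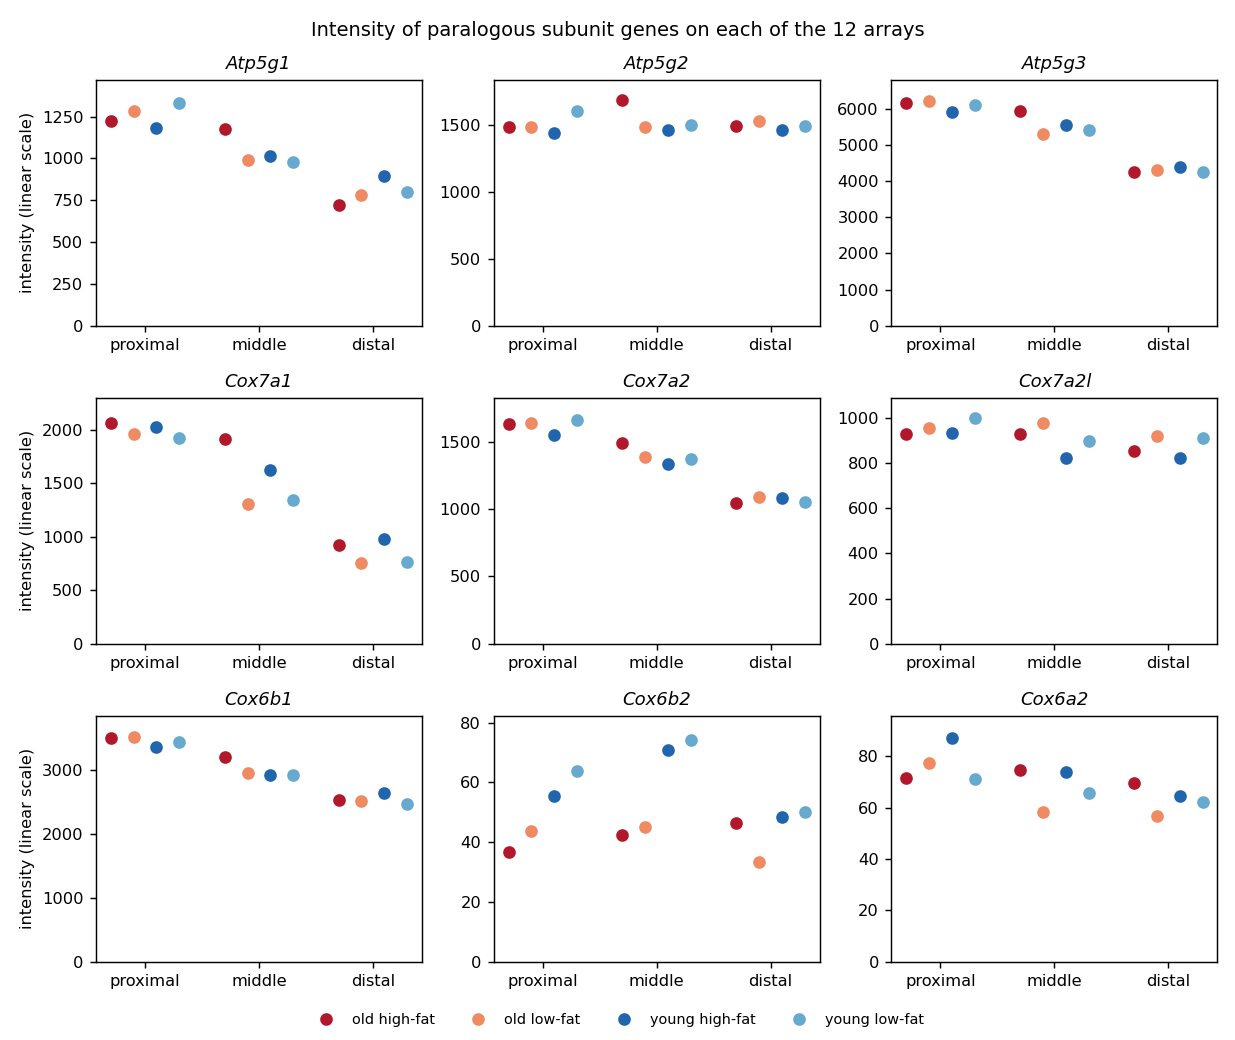
Intensity on a linear scale (vertical axis, a separate scale in each panel) of 9 genes from paralog sets on the 12 arrays, by segment (horizontal axis) and pool (colour). Atp5g1, Atp5g3 and Cox7a1 stepped down along the intestine, and Atp5g2 lay between 1443 and 1694 on every array. Cox6b2 was lower on each old array than on any young one. Its values lay near the intensity limit, which it passed on young arrays only, so the young arrays alone kept it among the tested genes.

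In complex V 16 of 17 genes were higher in the proximal segment, with a median of 0.49, and the exception was a c subunit gene. Atp5g2 had intensities of 1489, 1487, 1443 and 1605 on the proximal, 1694, 1491, 1468 and 1502 on the middle and 1497, 1533, 1469 and 1494 on the distal arrays, and its segments overlapped. The difference was 0.01 ± 0.06 SE, with a 95% interval of -0.12 to 0.14, and its other 2 probe sets gave 0.00 and 0.01. Under quantile normalization of the kept genes it became -0.16 and passed the test as lower (adjusted p = 0.0357). Atp5g1 had 1223, 1282, 1182 and 1332 on the proximal, 1174, 990, 1017 and 980 on the middle and 722, 783, 898 and 801 on the distal arrays, a difference of 0.65 ± 0.09. Atp5g3 had 6175, 6218, 5917 and 6129 on the proximal, 5941, 5324, 5577 and 5439 on the middle and 4268, 4324, 4388 and 4270 on the distal arrays, a difference of 0.50 ± 0.05. The intervals of Atp5g1, 0.46 to 0.84, and Atp5g3, 0.39 to 0.62, did not reach that of Atp5g2, although the difference between paralogs was not tested itself.

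The smallest differences among the complex V genes that passed belonged to subunits of the catalytic head and its stalk. Atp5b, the catalytic beta subunit, differed by 0.22, Atp5c1, the gamma subunit of the rotating stalk, by 0.24 and Atp5a1, the alpha subunit, by 0.28. Atp5b had intensities of 7524, 7456, 7367 and 7766 on the proximal, 7254, 7470, 7246 and 7520 on the middle and 6483, 6621, 6514 and 6302 on the distal arrays, so only the distal arrays stood apart. By position, again grouped after the values were seen, the 5 genes of the F1 head and central stalk had a median of 0.28. The 4 of the peripheral stalk had a median of 0.41 and the 5 of the membrane part one of 0.55. Their ranges overlapped, at 0.22 to 0.55, 0.33 to 0.50 and 0.49 to 0.63 in the same order. In the membrane part Atp5l was highest at 0.63 (its log2 difference over 6 probe sets ran between 0.61 and 0.66). Atp5o, at the top of the peripheral stalk, differed by 0.37.

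For 17 of the 85 genes there were further probe sets with the same single symbol, 25 in all. Each of the 25 had the same sign of the proximal minus distal difference as the probe set used, with a largest gap of 0.09. Such probe sets may lie on near-identical copies, and signal from a gene and its copies cannot be told apart here.

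Neighbouring pathways were described with lists drawn up by function. Of 17 genes of the tricarboxylic acid cycle and pyruvate dehydrogenase, 14 were higher and 1 lower in the proximal segment, with a median of 0.44. Dlat, the acetyltransferase of pyruvate dehydrogenase, differed by 1.25 and the malate dehydrogenase Mdh2 by 0.71, while the NADP-dependent isocitrate dehydrogenase Idh2 was lower, at -0.65. The list of electron carriers and other entry points also held genes of ubiquinone synthesis and Cyc1, a complex III subunit outside the symbol rule. Of its 15 genes, 9 were higher and 1 lower (median 0.35). They included Gpd2, the mitochondrial glycerol phosphate dehydrogenase, at 1.00, and cytochrome c, Cycs, at 0.51, while Dhodh, of pyrimidine synthesis, was lower at -0.32. Of 33 assembly factors outside the Ndufaf genes, 22 were higher and 0 lower (median 0.27).

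Other mitochondrial gene lists had medians closer to 0. Of 77 mitochondrial ribosomal protein genes, 26 were higher and 4 lower, a median of 0.08. Of 16 regulators of mitochondrial transcription and biogenesis, 3 were higher and 4 lower (median 0.04). Ppargc1a, the coactivator PGC-1 alpha, was higher by 1.49 ± 0.11 SE, Ppargc1b by 0.38 and Esrra by 0.21, while Pprc1, a related coactivator, was lower at -0.69, Hcfc1 at -0.39, Nrf1 at -0.21 and Polrmt, the mitochondrial RNA polymerase, at -0.17. Of 8 genes listed for exchange of ATP, ADP and phosphate, 4 were higher and 2 lower. That list also held the carnitine carrier Slc25a20 and the mitochondrial creatine kinase Ckmt1. The ADP/ATP carrier Slc25a4, known from muscle, was lower at -2.13, and its paralog Slc25a5 was higher at 0.23. Of the subunits encoded by the mitochondrial genome, COX2 and ND3 were measured, with differences of 0.10 and 0.23, and ND3 passed.

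Cell type markers moved with the same comparison. All 13 crypt proliferation markers were lower in the proximal segment (median -0.91), as were 8 of 10 epithelial markers (median -0.36). Of 10 villus enterocyte markers 7 were higher and 2 lower (median 0.69), with Alpi, the intestinal alkaline phosphatase, at 1.47 and Anpep, an aminopeptidase, at -0.88. The part of these shifts in the values of the oxidative phosphorylation genes was not tested.

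**Figure D4:**
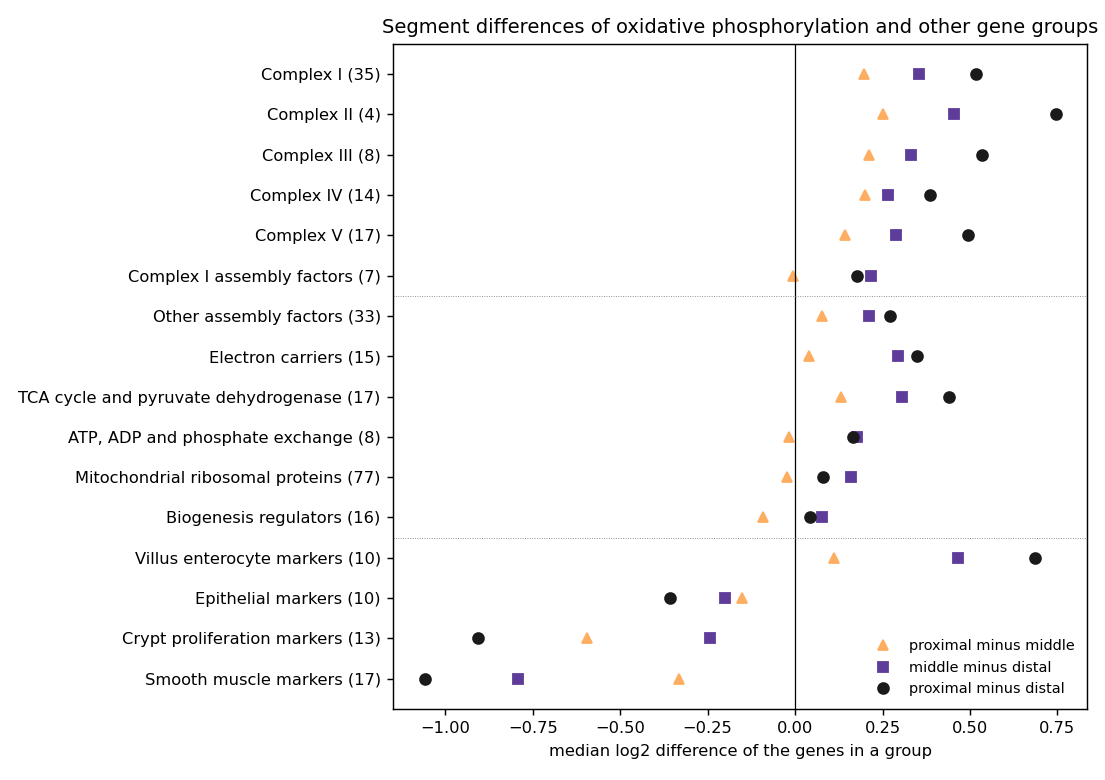
Median log2 difference (horizontal axis) of gene groups (vertical axis, with the number of genes) for proximal minus middle (triangles), middle minus distal (squares) and proximal minus distal (circles). The 5 complexes lie at 0.39 to 0.75 for proximal minus distal, near the tricarboxylic acid cycle genes at 0.44 and the villus enterocyte markers at 0.69, while mitochondrial ribosomal proteins and biogenesis regulators lie at 0.08 and 0.04.

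The second comparison asked whether the genes differed with age. Over the pools (means of the 3 segments, 2 old against 2 young pools, 1 residual degree of freedom), 1 of the 85 genes passed, as did 2.93% of all genes. The median difference of old minus young was 0.02, against 0.01 over all genes, and apart from Cox6b2 the differences lay between -0.12 (Ndufaf4) and 0.15 (Ndufb10). Their 95% intervals, not adjusted for the number of genes, reached a median of 0.11 to either side, so smaller changes were not detectable for most of them. Larger differences could also miss the adjusted threshold, as the 0.15 of Ndufb10 did. No gene was over 2-fold different in any of the 6 pairs of old and young arrays, whereas 1.06% of all genes were.

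Cox6b2, the testis paralog of a complex IV subunit, was lower in old mice. Its intensities were 36.5 and 43.9 on the proximal, 42.3 and 45.0 on the middle and 46.4 and 33.4 on the distal arrays of the old high-fat and old low-fat pools. They were 55.3 and 63.7, 70.9 and 74.1, and 48.5 and 50.2 on the matching arrays of the young high-fat and young low-fat pools. No old array reached the level of a young one, and the difference was -0.54 ± 0.05 SE (adjusted p = 0.00773, with a range of 0.000719 to 0.0483 over 9 alternatives). These values are near the intensity limit of 50, which the gene passed on young arrays only. Without the limit, the adjusted p was 0.0337. The broadly expressed paralog Cox6b1 had a difference of 0.03 (adjusted p = 0.781). Smooth muscle markers were lower in old mice in the same comparison in 14 of 17 cases (median -0.66) and fibroblast and matrix markers in 8 of 10 (median -0.42), and their part in the value of Cox6b2 was not tested.

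Within single segments (1 fit of 12 arrays with age and diet inside each segment, 3 residual degrees of freedom) none of the 85 genes passed for age with limma. Of all genes 0.109%, 0.0252% and 0.68% passed in the proximal, middle and distal segments. At an unadjusted p under 0.05 there were 1, 8 and 6 of the 85 genes (1.18%, 9.41% and 7.06%), against 8.68%, 8.8% and 19% of all genes, so none of these shares stood clearly above that of all genes. The medians of old minus young were 0.02 (proximal), 0.09 (middle) and -0.06 (distal), against 0.00, 0.02 and 0.00 over all genes. In the same order 57, 78 and 20 of the 85 genes lay above 0, as did 51.2%, 58.3% and 50.9% of all genes. In the middle segment Ndufb2, a membrane-arm subunit, was highest at 0.30 (adjusted p = 0.547). In the distal segment Ndufv3 was highest at 0.14. Cox6b2 was lowest in each segment, at -0.57 in the proximal (adjusted p = 0.163), -0.73 in the middle (adjusted p = 0.19) and -0.33 in the distal (adjusted p = 0.209).

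The third comparison asked how the genes responded to the high-fat diet. Over the pools 1 of the 85 genes passed, as did 5.71% of all genes, and the median of high-fat minus low-fat was 0.00, against -0.01 over all genes. Cox7a1 was higher on the high-fat diet. In old mice its intensities were 2063 and 1956 (high-fat and low-fat) for the proximal, 1912 and 1303 for the middle and 924 and 756 for the distal segment, and in young mice they were 2028 and 1921, 1620 and 1340, and 978 and 759. The high-fat array was the higher one in all 6 pairs, by the smallest step in the proximal segment, and the difference was 0.27 ± 0.05 SE (adjusted p = 0.0269). Over 9 alternatives the adjusted p ran between 0.000374 and 0.172, and the call was lost without an intensity limit (0.0891), without the middle segment (0.172) and without the distal segment (0.0963). Of the muscle paralogs, Cox6a2, with intensities of at most 87.2, differed by 0.18 (limma, adjusted p = 0.0856). The broadly expressed Cox7a2 differed by -0.01 (adjusted p = 0.92). Smooth muscle markers were lower on the high-fat diet in 4 of 17 cases and higher in 0 (median -0.18), and their part in the value of Cox7a1 was not tested.

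**Figure D5:**
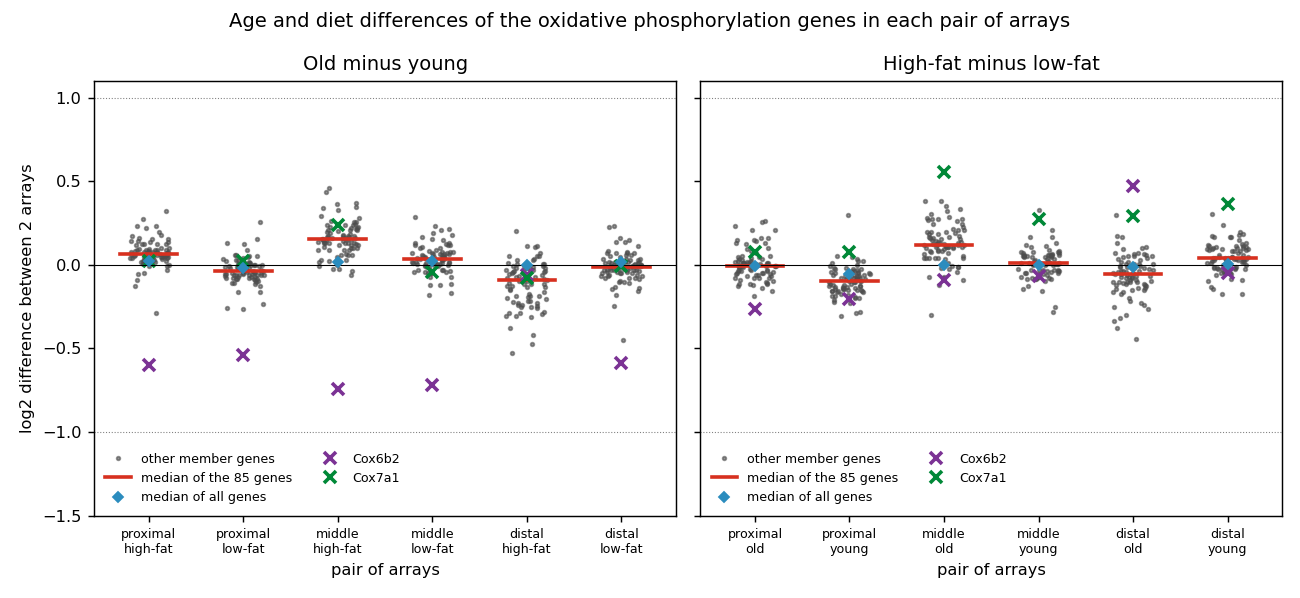
Log2 difference between 2 arrays (vertical axis) of the 85 genes in the 6 old minus young pairs (left) and the 6 high-fat minus low-fat pairs (right), with the median of the 85 genes (red line), the median of all genes (blue diamond), Cox6b2 and Cox7a1 (crosses) and 2-fold limits (dotted). Cox6b2 lay below 0 in each age pair and Cox7a1 above 0 in each diet pair, and no gene crossed a 2-fold limit.

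In the remaining genes the diet differences over the pools lay between -0.13 (Ndufc2) and 0.18 (Cox6a2). No gene was over 2-fold different in any of the 6 diet pairs, whereas 1.46% of all genes were. Within single segments none of the 85 passed with limma, against 0.319%, 2.54% and 0.529% of all genes in the proximal, middle and distal segment. At an unadjusted p under 0.05 there were 0, 3 and 2 of the 85 genes (0%, 3.53% and 2.35%), below the 10.8%, 18% and 17.5% of all genes. Cox7a1 came nearest, in the middle segment, with 0.41 ± 0.09 SE (adjusted p = 0.0571), against 0.08 in the proximal and 0.33 in the distal segment. The medians were -0.05, 0.07 and 0.00 in the 3 segments, against -0.03, 0.00 and -0.01 over all genes.

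Whether the age or the diet difference itself differed between segments was tested gene by gene. The fit was the 1 used within segments, which had no block for the pool. For the difference between segments of the age effect, 0% of all genes passed for proximal against distal, 0.0252% for proximal against middle and 0% for middle against distal. For the diet effect these shares were 0.0503%, 0.0252% and 0.0755%. None of the 85 genes passed in any of the 6 tests. At an unadjusted p under 0.05 there were 3, 0 and 9 of the 85 for age in the same order (3.53%, 0% and 10.6%, against 8.85%, 4.97% and 11.6% of all genes). For diet there was 1 in each (1.18%, against 9.51%, 6.72% and 13.3% of all genes). The lowest adjusted p among the 85 genes was 0.316, for the diet effect in middle against distal.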

How the data were processed

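The authors hybridised pooled RNA to 12 Affymetrix Mouse Gene 1.0 ST arrays and deposited log2 intensities normalized by RMA (version not given in the sources used here), which leaves counts and depth undefined for arrays. From these log2 values the brightest probe set of each symbol was kept, genes were retained if any array exceeded an intensity of 50, and pancreatic acinar genes were removed. Linear intensities were computed from the log2 values. Segments were compared with limma 3.58.1 (R 4.3.3) with the pool as a fixed block, age and diet within segments with 1 model of 12 arrays, and age and diet over segments with pool means. P-values were adjusted by Benjamini-Hochberg over 11919 genes with a threshold of 0.05. The scripts were tested on simulated data.

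The pairing of segments comes from the shared pool of mice, and the correlation of arrays within pools was 0.14 in the segment model. The genes and lists were chosen with earlier results of these data known. The genes to be named were the core subunits of each complex, the paralog sets, the highest and lowest differences of each comparison, genes that passed for age or diet, and the largest differences of each list. Ndufv2, Uqcrb, Uqcrq, Atp5l, Ndufaf3 and further genes of the lists were named after their values were seen, as were the groupings by position within complexes I and V. Alternatives were no intensity limit, acinar genes kept, median centring, quantile normalization, an intensity trend with a robust prior, means of probe sets, the pool as a random block, and leaving out pools, arrays or segments.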

Additional observations from a re-analysis of the deposited data

Results flagged for a closer look

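A pair of results is given here because all pairs of arrays moved one way in 1 segment and the opposite way in another. The median old minus young difference of the 85 genes was above 0 in both diet pairs of the middle segment (0.155 on the high-fat and 0.033 on the low-fat diet) and below 0 in both pairs of the distal segment (-0.089 and -0.015), a difference of 0.146 between the segments. Medians over all genes were 0.020 and 0.023 for the middle pairs, and -0.0012 and 0.015 for the distal pairs, so on the low-fat diet the middle value was close to that of all genes. The median high-fat minus low-fat difference was below 0 in both age pairs of the proximal segment (-0.0040 in old and -0.097 in young mice) and above 0 in both of the middle segment (0.121 and 0.0085), a proximal minus middle difference of -0.115. All genes had medians of -0.0040 and -0.052 for the proximal pairs, and -0.0036 and 0.0016 for the middle pairs, so the value in the proximal segment of old mice was that of all genes. The difference of these medians was not tested. Gene by gene, limma called 0 of the 85 in either comparison of segments, and 9 and 1 had an unadjusted p under 0.05 (10.6% and 1.18%, against 11.6% and 6.72% of all genes).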

How the results depend on the processing

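Across the alternatives, 276 recomputed counts and medians stayed within their limits and 15 moved, while 1436 values of single genes kept direction and call, 72 lost and 11 gained a call and 21 changed sign. The cause of these changes was not tested. Proximal against distal, 74 to 79 of the 85 genes were higher, and the median was 0.357 under quantile normalization. Proximal against middle, 8 to 47 genes were higher when a pool was left out. Middle against distal, the count ran between 49 and 72. With the pool as a random block these 3 counts were 77, 41 and 70. For diet over pools, 0 genes passed with no intensity limit, without the middle or without the distal segment, and 3 passed with an intensity trend and robust prior. That prior also gave 1 gene for age in the distal segment, 1 for diet in the middle and 2 for diet in the distal segment, and the middle arrays fitted alone gave 1 for age. Without the middle segment the median over pools was -0.019 for age and -0.031 for diet, and without the distal segment it was 0.058 for age.

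Sign changes were mostly of values near 0. Under quantile normalization, proximal minus distal was 0.045 for Cox4i2, -0.158 for Atp5g2 and 0.042 for Ndufaf6, proximal minus middle was -0.0093 for Atp5c1, and middle minus distal was 0.0089 for Cox4i2, -0.058 for Cox7a2l, -0.020 for Cox8a and -0.092 for Atp5g2. When 1 pool was left out, proximal minus distal ran between -0.071 and 0.096 for Ndufaf7, between -0.097 and 0.093 for Ndufaf6 and between -0.026 and 0.023 for Atp5g2. Proximal minus middle ran between -0.071 and 0.023 for Atp5g2, and middle minus distal between -0.011 and 0.061 for Atp5g2 and between -0.065 and 0.138 for Ndufaf6. When 1 array was left out, the diet difference ran between -0.051 and 0.235 for Ndufaf6 in the proximal and between -0.050 and 0.474 for Cox6b2 in the distal segment, and the age difference of Cox7a1 in the middle segment between -0.040 and 0.239. Without the distal segment, Ndufb6 was at 0.065 for age over pools. With 1 array per condition, the number of arrays limits the precision.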
